A study of Mus musculus with 20 samples.

Results

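The genes described here make miRNAs: Drosha, Dgcr8, Xpo5, Dicer1, Tarbp2 and Prkra. They were listed by name for these roles and followed through every AGO2 RNA immunoprecipitation (RIP-seq) library and every mRNA-seq library of the series. In the RIP-seq the 6 genes had 13 rows of the 38158 annotated 3′UTR rows (19888 genes), and in the mRNA-seq they had 8 of the 32850 RefSeq rows (23781 genes). Of the 13 RIP-seq rows, 3 rows from 2 genes (Dicer1 and Prkra) had at least 10 counts in every library, and 5 of the 6 genes had mRNA counts.

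A miRNA gene is transcribed as a long hairpin-bearing RNA. In the nucleus the microprocessor, formed by the RNase Drosha and its RNA-binding partner Dgcr8, cuts out the hairpin, which exportin-5 (Xpo5) carries to the cytoplasm with the GTPase Ran. There the RNase Dicer1, assisted by the double-stranded RNA-binding proteins Tarbp2 (TRBP) and Prkra (PACT), cuts off the loop, and a strand of the duplex is loaded into an Argonaute protein such as AGO2, which with GW182 proteins represses mRNAs that pair with the seed of the miRNA.

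All mice were adult male C57BL/6 mice, and vectors were AAV5 injected into the hippocampus with expression from a synapsin promoter, which is active in neurons. For the RIP-seq, GFP-tagged AGO2 was precipitated with a GFP antibody from mice given GFP-AGO2 together with a sponge that binds miR-124 (miR124sp), miR-125 (miR125sp) or, as the control, miR-292 (miR292sp), and from sham-injected mice without GFP-AGO2, with 2 libraries in each group and 2 hippocampi pooled in each library. A sponge is a transcript with repeated imperfect sites that binds and inhibits a miRNA. For the mRNA-seq, whole hippocampal tissue of single mice was sequenced: 3 mice with GFP.miR124sp against 3 GFP mice, and 3 mice with GFP.miR125sp against another 3 GFP mice.

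The deposited counts summed to between 2417942 and 5072501 in the RIP-seq libraries and between 6950522 and 27833176 in the mRNA-seq libraries. The 3 GFP mice of the miR-124 experiment stood apart: all 3 lay below the other 9 mice for 11.4% of 13268 genes and above them for 12.5%, against 1.19% to 2.23% for the other groups of 3. In the RIP-seq, the summed level of 10 listed astrocyte markers, with Fgfr3 listed at 0, was 44083 to 44333 CPM with miR124sp. It was 35048 to 37456 CPM with miR125sp, 15317 to 16113 CPM with miR292sp and 63080 to 63499 CPM with sham. By the edgeR test against sham given below, 3 of the list's 9 tested rows were called higher and 2 lower with miR292sp. With miR124sp and miR125sp 0 were called in either direction, so the sum does not stand for each marker. Sums of markers are given in plain CPM throughout, without the TMM scaling used for the CPM of single genes. These RIP-seq libraries are GFP precipitates, and sham holds no GFP-AGO2. What sets their astrocyte levels was not tested. The mRNA-seq measured tissue in bulk, so that there fewer cells of a type and less RNA per cell cannot be told apart.

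The sequences that bear on the sponges are the seed matches in the members' 3′UTRs, that is, the heptamers complementary to miRNA bases 2 to 8. For each gene the longest counted 3′UTR was searched for matches of let-7, miR-9, miR-21, miR-103 (which shares its seed with miR-107), miR-124, miR-125 and miR-292, on the transcript strand. The mature miRNAs that have a match, as listed by RefSeq on GRCm38.p6, are shown 5′ to 3′ with the seed in capitals. The mature sequences of miR-124 and miR-292 were not used here.
mmu-miR-125b-5p: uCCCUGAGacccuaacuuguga
mmu-miR-103-3p: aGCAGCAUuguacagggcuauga
mmu-miR-9-5p: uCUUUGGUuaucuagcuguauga
mmu-let-7a-5p: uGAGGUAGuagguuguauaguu

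The match of miR-124, GTGCCTT, was in none of the 6 searched 3′UTRs. Of 3′UTRs of similar length to each, 31.1% hold it for Dicer1, 16.2% for Dgcr8 and 5.78% for Prkra. The shares are 4.07% for Tarbp2, 1.47% for Drosha and 0.211% for Xpo5, so its absence is common at these lengths. The match of miR-125, CTCAGGG, occurred in the 3′UTR of Dicer1, at bases 2077 to 2083 of 3851, and 30.3% of 1784 3′UTRs of similar length hold it too. The match of miR-103, ATGCTGC, occurred in Dicer1, Dgcr8 and Tarbp2, and is held by 30.3%, 12.7% and 3.67% of 3′UTRs of similar length to each. The Dicer1 3′UTR also held a match of miR-9, ACCAAAG (31.2% of similar 3′UTRs), and of miR-292, GGCACTT (22.0%), and that of Tarbp2 a match of let-7, CTACCTC (2.53%). The 3′UTRs of Drosha, Xpo5 and Prkra held no match of these 7. They are 168, 28 and 513 bases long. Each match is held by at most 2.09%, 0.421% and 6.19% of 3′UTRs of similar length in that order, so absence is common there. The sites are shown on the transcript strand with the match in capitals, and their positions are on NCBIM37 (mm9).
Dicer1, miR-125 match, chr12:105927719-105927748, minus strand: ggatatgcttcgttcatccattCTCAGGGc
Dicer1, miR-103 match, chr12:105928379-105928408, minus strand: cctgaggctgatgcttcatgtaATGCTGCa
Dicer1, miR-9 match, chr12:105928822-105928851, minus strand: actaggcagtgttgccagagtcACCAAAGc
Dicer1, miR-292 match, chr12:105929083-105929112, minus strand: aaatggggtggcagctcactagGGCACTTg
Dgcr8, miR-103 match, chr16:18254137-18254166, minus strand: ggtgggtcttatatgtacagtcATGCTGCa
Tarbp2, let-7 match, chr15:102353853-102353882, plus strand: gtaccctccagaggtgccatctCTACCTCt
Tarbp2, miR-103 match, chr15:102353993-102354022, plus strand: aatctattggagtcctgaataaATGCTGCt

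To see which transcripts of the miRNA machinery were themselves held by AGO2, counts in the RIP-seq were first set against sham. Of the 3 rows that could be tested, the 3′UTR of Dicer1 was enriched with each of the 3 vectors, and neither the Prkra 3′UTR nor a Dicer1 row within coding sequence was. The Dicer1 3′UTR is 3851 bases long and lies at chr12:105925952-105929802 on the minus strand of NCBIM37. It had 872 and 630 counts with miR124sp, 814 and 913 with miR125sp, 1883 and 1538 with miR292sp, and 397 and 373 with sham.

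The relative enrichment in AGO2 binding is the count of a 3′UTR divided by the mean count of Gapdh and its 50 neighbours on each side in the ranking by the raw ratio of miR292sp to sham, as a fold of the sham mean. The ranking thus uses values that are compared here. These Gapdh-centred rows held 1.43% to 1.45% of all counts with miR124sp and 1.21% to 1.29% with miR125sp. They held 0.697% to 0.745% with miR292sp and 1.92% to 2.01% with sham, so this scale lifts miR292sp most. For the Dicer1 3′UTR the relative enrichment was 2.22 and 2.03 with miR124sp (mean 2.1 ± 0.13, SD, n = 2), 2.71 and 2.71 with miR125sp (2.71 ± 0.00325) and 7.22 and 5.60 with miR292sp (6.41 ± 1.14). All 6 values lay above both sham libraries, as did those of 44.3% of all rows with miR124sp, 55.6% with miR125sp and 76.1% with miR292sp. With miR292sp Dicer1 was among the 27.2% of rows enriched more than 4-fold, and it was not among the 2.8% of rows with miR124sp or the 6.18% with miR125sp. The median of the 8203 3′UTR rows tested was 1.29 with miR124sp, 1.47 with miR125sp and 2.39 with miR292sp, so that Dicer1 stood at percentile 83.6, 84.9 and 87.1 of each group in that order.

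**Figure D1:**
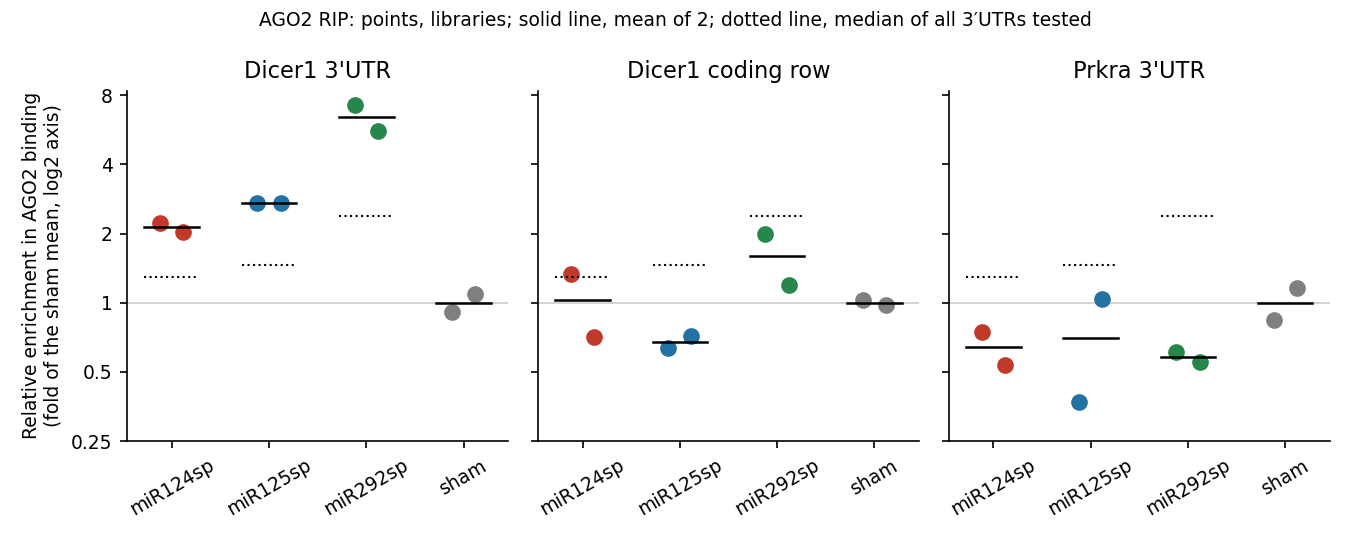
Relative enrichment in AGO2 binding (fold of the sham mean, log2 axis) of the 3 testable rows in each RIP-seq library; points are libraries, solid lines group means of 2 and dotted lines the median of all 8203 rows. The Dicer1 3′UTR lies above the dotted line in all 6 libraries with GFP-AGO2, at 2.03 to 7.22, and the Prkra 3′UTR below it.

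With edgeR's quasi-likelihood test and Benjamini-Hochberg adjustment over all 8203 rows, the Dicer1 3′UTR was higher than sham by a log2 fold change of 1.09 with miR124sp (SE 0.21, adjusted p = 0.000897), of 1.44 with miR125sp (SE 0.21, adjusted p = 3.59e-05) and of 2.68 with miR292sp (SE 0.21, adjusted p = 8.82e-09). The share of all rows called higher on this scale was 19.3%, 30.1% and 59.4% in the same order, and 1 of 3 member rows was called each time. Under TMM scaling, which holds most rows unchanged and takes the median of all rows with miR292sp to -0.11 in place of 1.26, the Dicer1 3′UTR remained above sham at 0.74 with miR124sp (adjusted p = 0.0290), 0.86 with miR125sp (adjusted p = 0.00801) and 1.32 with miR292sp (adjusted p = 9.95e-05). Hence the size of the enrichment depended on the scale and its direction did not.

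A second Dicer1 row covers 360 bases at chr12:105960294-105960653, all of them coding sequence in other Dicer1 transcripts. It had 91 and 38 counts with miR124sp, 33 and 42 with miR125sp, 90 and 57 with miR292sp, and 77 and 58 with sham. Its relative enrichment was 1.02 ± 0.446 with miR124sp, 0.678 ± 0.0597 with miR125sp and 1.60 ± 0.561 with miR292sp (SD, n = 2 each). Both values with miR292sp lay above both sham libraries, as did those of 76.1% of all rows. Both with miR125sp lay below sham, for which no share of all rows is given. Against sham its log2 fold change was 0.04 with miR124sp (SE 0.48, adjusted p = 0.973 in edgeR), -0.56 with miR125sp (SE 0.50, adjusted p = 0.446) and 0.67 with miR292sp (SE 0.48, adjusted p = 0.245), and under TMM scaling the values for miR124sp and miR292sp changed sign, to -0.30 and -0.70.

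Since both Dicer1 rows come from the same libraries, their ratio needs no scaling between libraries. Counts per kilobase of the 3′UTR divided by those of the coding row were 0.896 and 1.55 with miR124sp (1.22 ± 0.462), 2.31 and 2.03 with miR125sp (2.17 ± 0.194), 1.96 and 2.52 with miR292sp (2.24 ± 0.401), and 0.482 and 0.601 with sham (0.542 ± 0.0843, SD, n = 2 each). All 6 ratios with GFP-AGO2 lay above both sham ratios, and those with miR124sp lay below those with miR125sp and miR292sp. No test was run on these ratios, and the coding row rests on 33 to 91 counts a library. The ratio of 0.896 came from the miR124sp library with 91 coding counts, against 38 in the other. How often other genes show such an order was not counted. The paper restricted its analysis to 3′UTR reads because RNA may degrade during the precipitation, which could also affect this ratio.

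**Figure D2:**
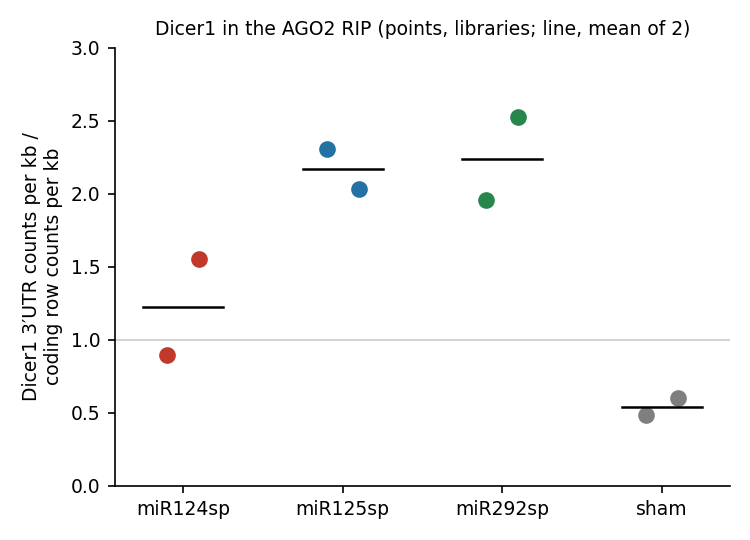
Counts per kilobase in the Dicer1 3′UTR divided by those in the Dicer1 coding row, for each RIP-seq library (points) with the mean of 2 (lines). The sham libraries sit at 0.482 and 0.601, below the lowest of the other libraries at 0.896.

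Prkra encodes a double-stranded RNA-binding protein that binds Dicer. Its 3′UTR (513 bases, chr2:76467955-76468467, minus strand) had 37 and 21 counts with miR124sp, 14 and 44 with miR125sp, 20 and 19 with miR292sp, and 46 and 50 with sham. The relative enrichment was 0.644 ± 0.149 with miR124sp, 0.705 ± 0.472 with miR125sp and 0.580 ± 0.0420 with miR292sp (SD, n = 2 each), which ranked Prkra 127 of 8203 with miR292sp, at percentile 1.55, and at percentile 5.13 and 5.62 with miR124sp and miR125sp. Its values with miR124sp and miR292sp lay below both sham libraries, as did those of 7.61% and 3.93% of all rows, and those with miR125sp overlapped sham.

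In the edgeR test against sham, the log2 fold change of Prkra was -0.62 with miR124sp (SE 0.55, adjusted p = 0.502), -0.49 with miR125sp (SE 0.54, adjusted p = 0.554) and -0.78 with miR292sp (SE 0.56, adjusted p = 0.242). Under TMM scaling the value for miR292sp was -2.13 and passed the test (adjusted p = 0.00612), while -0.96 for miR124sp (adjusted p = 0.300) and -1.06 for miR125sp (adjusted p = 0.200) did not.

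The remaining rows held too few counts for this test. The 3′UTR of Tarbp2 (334 bases, chr15:102353774-102354107, plus strand) had 14 and 12 counts with miR124sp, 11 and 25 with miR125sp, 36 and 59 with miR292sp, and 5 and 0 with sham. Of its bases, 262 are shared with other counted rows of the gene. All 6 libraries with GFP-AGO2 lay above both sham libraries, which was common, as 44.3%, 55.6% and 76.1% of the tested rows did with the 3 vectors in that order. The row missed the minimum of 10 counts only through sham, so that its high value elsewhere decides which filters keep it. Neither a test nor a fold is therefore given for it.

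Another Tarbp2 row of 76 bases within coding sequence had 3 and 0 counts with miR124sp, 2 and 1 with miR125sp, 5 and 0 with miR292sp, and 4 and 21 with sham. The 3′UTR row of Xpo5 (chr17:46379221-46379248, plus strand) is 28 bases long, shorter than the 50-base reads, and had 1 and 11 counts with miR124sp, 3 and 7 with miR125sp, 2 and 3 with miR292sp, and 11 and 4 with sham. The Xpo5 groups overlapped.

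The 7 other rows were listed at 0 in all 8 libraries: 3 of Drosha (121 to 168 bases), 2 of Dgcr8 (1565 and 1574 bases) and 2 of Tarbp2. Most or all bases of each are shared with another counted row of the same gene. Of the 15317 rows in the file with over 90% of their bases shared in this way, 88.5% were at 0, against 23.0% of the 14734 rows that share no base. The 3′UTR of Dgcr8 also overlaps Trmt2a. The rule by which reads in shared bases were assigned was not given in the sources used, so the zeros of Drosha and Dgcr8 say nothing of their binding to AGO2.

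To ask whether inhibition of a miRNA released these transcripts, the sponges were set against miR292sp under TMM scaling. No member row passed the edgeR test with either sponge, while 8.56% of all rows passed with miR124sp and 1.41% with miR125sp. Per sponge, 1 of the 3 rows, the Dicer1 3′UTR, had an unadjusted p below 0.05, as did 26.2% of all rows with miR124sp and 17.1% with miR125sp. Its log2 fold change was -0.58 with miR124sp (SE 0.20, adjusted p = 0.0870 in edgeR) and -0.46 with miR125sp (SE 0.20, adjusted p = 0.267 in edgeR). Both libraries of each sponge lay below both miR292sp libraries, as for 28.6% of all rows with miR124sp and 27.9% with miR125sp.

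The lower value of Dicer1 with miR124sp passed the test in DESeq2 (-0.63, adjusted p = 0.0283), and on the scale of the genes around Gapdh it passed with miR124sp (-1.59, adjusted p = 1.24e-05) and with miR125sp (-1.24, adjusted p = 0.000294). On that scale the median of all rows was itself at -0.97 with miR124sp and at -0.75 with miR125sp, and lists of cell type markers moved in the same comparisons. The summed level of the astrocyte markers given above was higher with both sponges than with miR292sp, where 4 of 9 tested rows were called higher with miR124sp and 3 with miR125sp. The summed level of 10 markers of hippocampal pyramidal and granule neurons, with Prox1 listed at 0, was 1268 to 1504 CPM with miR124sp and 1474 to 1604 CPM with miR125sp, against 2029 to 2164 CPM with miR292sp, where 2 of 8 tested rows were called lower with miR124sp and 1 with miR125sp. The summed level of 15 general neuronal markers, with Map2 and Syt1 listed at 0, overlapped between these groups. It was 8502 to 8832 CPM with miR124sp, 8742 to 9898 CPM with miR125sp and 8581 to 9227 CPM with miR292sp. Of its 13 tested rows, 1 was called higher and 0 lower with each sponge. Summed choroid plexus markers were 85.9 to 121 CPM with miR124sp and 356 to 450 CPM with miR125sp, against 57.5 to 66.8 CPM with miR292sp. Summed endothelial and mural markers were 269 to 337 CPM and 250 to 307 CPM, against 141 to 169 CPM. The oligodendrocyte sum overlapped miR292sp with miR124sp and was higher with miR125sp, and the microglial sum the reverse. The part of the marker shifts in the values of Dicer1 was not tested. The comparison of miR124sp with miR125sp gave -0.12 for the Dicer1 3′UTR (SE 0.20, adjusted p = 0.993 in edgeR), where 0.0122% of all rows passed.

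By rank of relative enrichment, in which the lowest row is 1, the Dicer1 3′UTR stood at 6861 of 8203 with miR124sp, at 6965 with miR125sp and at 7142 with miR292sp. All 3 ranks lie within the highest 2230, the number of rows enriched more than 4-fold with miR292sp, which begin at rank 5974. Among those 2230 rows, 475 (21.3%) left the highest ranks with miR124sp and 383 (17.2%) with miR125sp. Dicer1, which has the miR-125 match shown above and no miR-124 match, was not among either.

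Neither of the other tested rows passed. Prkra had a log2 fold change against miR292sp of 1.17 with miR124sp (SE 0.56, adjusted p = 0.197 in edgeR) and of 1.08 with miR125sp (SE 0.56, adjusted p = 0.342). Its TMM-scaled CPM were 11.0 and 7.14 with miR124sp and 4.34 and 12.6 with miR125sp, against 4.14 and 3.91 with miR292sp. Both libraries of each sponge thus lay above both miR292sp libraries, for which no share of all rows is given. The Dicer1 coding row had 0.40 with miR124sp (SE 0.48, adjusted p = 0.632) and -0.44 with miR125sp (SE 0.49, adjusted p = 0.680), and the first of these became -0.63 on the scale of the genes around Gapdh.

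The other genes of the miRNA pathway gave a wider view of the same RIP-seq libraries. Of 25 with a tested row, covering the microprocessor's helicases, export partners, Argonautes, GW182 proteins and precursor turnover, 5 were higher than sham with miR124sp (19.3% of all rows were), 10 with miR125sp (30.1% of all rows) and 16 with miR292sp (59.4% of all rows), and none was lower. Their median log2 fold change was 0.43 with miR124sp, 0.41 with miR125sp and 1.33 with miR292sp, against 0.36, 0.55 and 1.26 for all rows. The highest were Ago1 (listed as Eif2c1), an Argonaute, at 1.90, 2.44 and 3.69, and Tnrc6b, a GW182 protein, at 1.50, 1.94 and 3.29, followed with miR125sp and miR292sp by the helicase Mov10 at 1.75 and 2.60, and with miR124sp by the cap-binding protein Ncbp2 at 1.25.

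Against miR292sp, 2 of the 25 genes were higher and 2 lower with miR124sp (5.1% and 3.46% of all rows), and 0 of 25 passed with miR125sp in edgeR. The lower genes were Tnrc6b (log2 fold change -0.77, SE 0.18, adjusted p = 0.0156) and Ago1 (-0.77, SE 0.21, adjusted p = 0.0302). The higher genes were the chaperone Hsp90ab1 (0.99, SE 0.28, adjusted p = 0.0395) and the helicase Ddx17 (0.76, SE 0.17, adjusted p = 0.0147). Over the 8 libraries, the row most like the Dicer1 3′UTR in log2 scaled counts was also Tnrc6b (Pearson r = 0.994), then Dnajc27 (r = 0.991). The points fall into the 4 groups and share their libraries' AGO2 content, and 825 of 8160 rows had r above 0.9 with Dicer1.

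The mRNA-seq shows the level of the same genes in whole tissue. Scaled to transcript length over the 12 mice, the level was 19.7 ± 1.98 CPM per kilobase for Xpo5, 15.4 ± 1.68 for Prkra, 10.7 ± 1.03 for Dicer1, 9.78 ± 0.703 for Dgcr8 and 1.59 ± 0.237 for Tarbp2 (SD, n = 12). Xpo5 was above Prkra in 11 of 12 mice, Prkra above Dicer1 in 12, Dicer1 above Dgcr8 in 10 and Dgcr8 above Tarbp2 in 12. Dicer1 and Dgcr8 differed by less than 1 SD of Dicer1. Among 11455 genes with 1 RefSeq row, Xpo5 stood at percentile 66.2, Prkra at 60.1, Dicer1 at 50.9 and Dgcr8 at 48.9.

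Both RefSeq rows of Drosha and the second row of Tarbp2 were listed at 0 in all 12 mice. Of the genes with 1 RefSeq row 17.5% were at 0, with a median of 559.5 counts over the 12 mice, and of those with more than 1 row 23.0% were at 0, with a median of 32 counts. The level of Drosha therefore could not be read from these counts, and that of Tarbp2, with 15 to 83 counts a mouse, is uncertain for the same reason.

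To test whether loss of miR-124 activity changed the machinery, miR124sp mice were set against their GFP mice. Of the 5 genes with counts, Dicer1 and Xpo5 rose and the other 3 did not pass the test. These 2 of 5 stand beside 12.6% of 12971 genes called higher and 10.7% called lower by edgeR. Groups did not overlap for 3 of the 5 genes (Dicer1, Xpo5 and Dgcr8), all higher in miR124sp mice, against 19.5% of all genes in that direction.

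Dicer1 had 113.5, 114.6 and 101.5 CPM in the miR124sp mice, against 88.5, 95.8 and 92.2 CPM in their GFP mice (means 110 ± 7.27 and 92.2 ± 3.64, SD, n = 3 each). The lowest miR124sp mouse was above the highest GFP mouse. The log2 fold change was 0.27 (SE 0.07, adjusted p = 0.0264 in edgeR).

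Xpo5 had 77.4, 73.0 and 72.0 CPM in the miR124sp mice, against 59.8, 62.0 and 67.1 CPM in their GFP mice (means 74.1 ± 2.87 and 63.0 ± 3.73). The groups did not overlap, and the log2 fold change was 0.25 (SE 0.07, adjusted p = 0.0350 in edgeR).

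Dgcr8 had 45.2, 45.5 and 40.7 CPM in the miR124sp mice, against 35.5, 37.6 and 40.1 CPM in their GFP mice (means 43.8 ± 2.68 and 37.7 ± 2.29). The groups were separated by 1 close pair of mice, and the log2 fold change of 0.23 did not pass (SE 0.08, adjusted p = 0.0660 in edgeR). In a fit of all 12 mice it was 0.22 and passed (adjusted p = 0.0280).

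The Dicer partners had lower means and groups that overlapped. Prkra had 21.2, 25.2 and 21.7 CPM in the miR124sp mice, against 29.5, 23.4 and 27.1 CPM in their GFP mice, with a log2 fold change of -0.22 (SE 0.11, adjusted p = 0.167 in edgeR). Tarbp2 had 3.15, 2.52 and 2.45 CPM in the miR124sp mice, against 2.89, 3.61 and 2.85 CPM in their GFP mice, with a log2 fold change of -0.18 (SE 0.19, adjusted p = 0.529).

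The calls of Dicer1 and Xpo5 were close to the threshold. Leaving out GFP replicate 15, miR124sp replicate 14 or miR124sp replicate 2 ended both calls (adjusted p for Dicer1 0.132, 0.116 and 0.113, and for Xpo5 0.156, 0.135 and 0.0952), GFP replicate 8 ended that of Dicer1 (0.0709) and GFP replicate 20 that of Xpo5 (0.0801). The headers of miR124sp replicates 2 and 9 lack a mark that the other 4 libraries of this comparison carry, and with the mark as a covariate the log2 fold change was 0.32 for Dicer1 (adjusted p = 0.0866) and 0.31 for Xpo5 (adjusted p = 0.0837). In the 4 marked libraries alone, a setting chosen after the data were seen with 1 miR124sp mouse whose spread is taken from the GFP mice, both were at 0.32 (adjusted p = 0.0664 for Dicer1 and 0.0758 for Xpo5).

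Markers of cell types moved in the same comparison. Of 9 oligodendrocyte markers 6 were higher in miR124sp mice (summed level 1125 to 1432 CPM, against 835 to 921 CPM in GFP mice), 5 of 10 astrocyte markers were lower (6484 to 6655 CPM against 7880 to 9615 CPM), 5 of 8 microglial markers were lower (533 to 562 CPM against 612 to 690 CPM, with Itgam listed at 0), and of 14 neuronal markers 5 were higher and 2 lower (7590 to 8015 CPM against 7085 to 7567 CPM). Summed choroid plexus markers varied widely between mice in both groups (60.4 to 2300 CPM in miR124sp mice and 118 to 4307 CPM in GFP mice), and 0 of 4 were called. Sums of endothelial and of hippocampal neuron markers overlapped. The part of these marker shifts in the values of Dicer1 and Xpo5 was not tested.

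**Figure D3:**
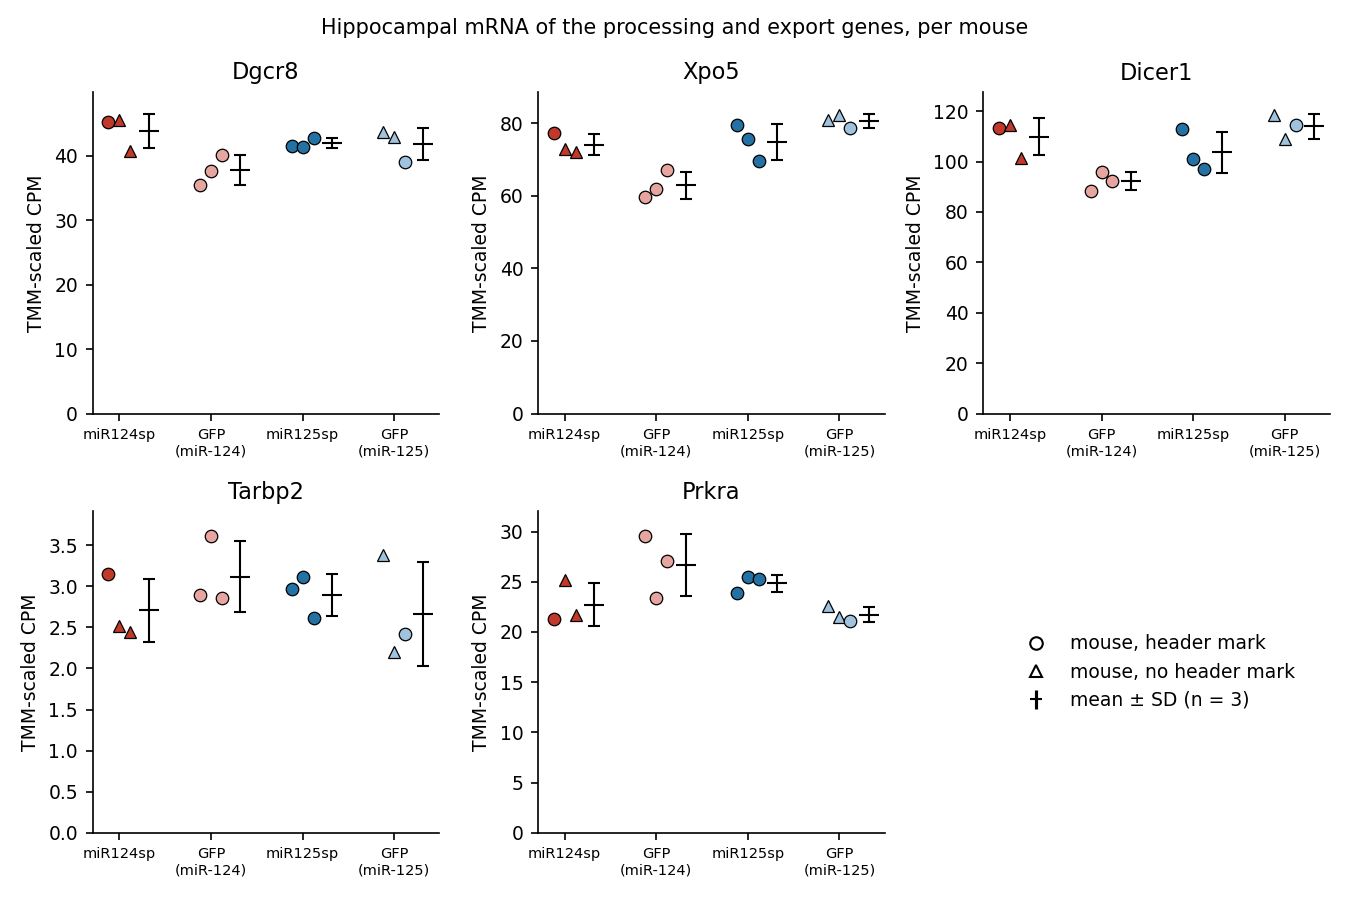
TMM-scaled CPM of the 5 measured genes in each of the 12 mice, with the mean and SD of each group of 3; circles are libraries with the header mark and triangles those without. Dicer1 and Xpo5 are lowest in the 3 GFP mice of the miR-124 experiment, at 88.5 to 95.8 and 59.8 to 67.1 CPM.

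In the miR-125 experiment no member passed the test, and neither did most genes, with 0.206% of 12638 called by edgeR. At an unadjusted p below 0.05 there were 2 of the 5 genes (Dicer1 and Prkra), beside 13.1% of all genes, and DESeq2 called 0 of 5. Dicer1 had 112.8, 101.2 and 97.1 CPM in the miR125sp mice, against 118.5, 108.8 and 114.7 CPM in their GFP mice (means 104 ± 8.16 and 114 ± 4.89), and the groups overlapped. Its log2 fold change was -0.14 (SE 0.06, adjusted p = 0.373 in edgeR).

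Prkra had 23.9, 25.4 and 25.3 CPM in the miR125sp mice, against 22.6, 21.5 and 21.1 CPM in their GFP mice (means 24.9 ± 0.847 and 21.7 ± 0.770). The groups did not overlap, as for 9.81% of all genes in this direction, and the log2 fold change was 0.20 (SE 0.08, adjusted p = 0.300 in edgeR). The log2 fold change was -0.10 for Xpo5 (SE 0.06, adjusted p = 0.498), 0.02 for Dgcr8 (SE 0.07, adjusted p = 0.946) and 0.15 for Tarbp2 (SE 0.21, adjusted p = 0.818), with overlapping groups in each.

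An interaction term over all 12 mice tested whether the sponge effects differed, as the log2 fold change with miR124sp minus that with miR125sp. It passed for 3 of the 5 genes, beside 14.5% of 13268 genes (7.42% positive, 7.06% negative): Dicer1 at 0.39 (SE 0.10, adjusted p = 0.0162 in edgeR), Xpo5 at 0.34 (SE 0.09, adjusted p = 0.0241) and Prkra at -0.44 (SE 0.13, adjusted p = 0.0435). Dgcr8 at 0.20 (SE 0.10, adjusted p = 0.191) and Tarbp2 at -0.34 (SE 0.28, adjusted p = 0.455) did not pass. With each of the 12 mice left out in turn, Dicer1 passed 12 times, Xpo5 9 times and Prkra 2 times, and with the header mark as a covariate none passed (adjusted p = 0.0735, 0.107 and 0.0855).

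**Figure D4:**
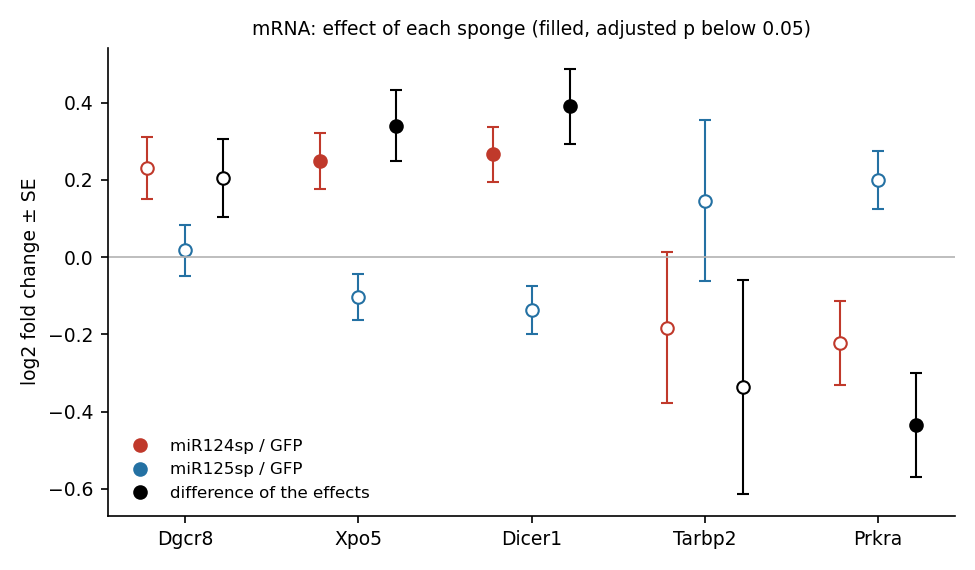
Log2 fold change ± SE of the 5 measured genes for miR124sp against GFP, for miR125sp against GFP and for the difference between these effects; filled points passed the edgeR test. Dicer1 and Xpo5 have positive differences of 0.39 and 0.34 and Prkra a negative one of -0.44.

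Behind this difference, Dicer1 had a mean of 110 CPM in miR124sp mice against 92.2 CPM in their GFP mice, and of 104 CPM in miR125sp mice against 114 CPM in their GFP mice. Xpo5 had a mean of 74.1 CPM in miR124sp mice against 63.0 CPM in their GFP mice, and of 75.0 CPM in miR125sp mice against 80.7 CPM in their GFP mice. For both genes the GFP means of the experiments lay further apart than the sponge means. For Dicer1 and Xpo5 the 3 GFP mice of the miR-124 experiment were the lowest of the 12, as for 11.4% of all genes.

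The other genes of the pathway were measured beside them. Of 37 tested, 7 were higher and 1 lower in miR124sp mice than in their GFP mice, beside 12.6% and 10.7% of all genes. In the miR-125 experiment 0 of 37 passed in edgeR, beside 0.206% of all genes, and the difference passed for 7 (6 positive, 1 negative), beside 14.5% of all genes. Their median log2 fold change was 0.11 with miR124sp and -0.07 with miR125sp, against -0.01 for all genes in both. The largest with miR124sp were the exonuclease Xrn1 (0.37, adjusted p = 0.00935), the RNA-binding protein Khsrp (0.34, adjusted p = 0.0155) and the GW182 protein Tnrc6c (0.33, adjusted p = 0.0115), and the lower gene was Ran (-0.26, adjusted p = 0.0351), the GTPase with which Xpo5 exports precursors. The difference between the experiments was largest for Xrn1 (0.58), the RNA-binding protein Elavl1 (0.45) and Tnrc6c (0.45), and negative for Ran (-0.36).

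The genes whose mRNA level ran most like a member's over the 12 mice were Cep350 (Pearson r = 0.961) and Chd9 (r = 0.950) for Dicer1, and Anapc1 (r = 0.969) and Mtor (r = 0.969) for Xpo5. For Dgcr8 they were Abcc8 (r = 0.954) and 5730455P16Rik (r = 0.954), for Tarbp2 Gtf2a2 (r = 0.904) and Kash5 (r = 0.885), and for Prkra Idh3b (r = 0.896) and Mmadhc (r = 0.872). These are descriptions over 12 points that share their groups. Of 13267 genes, 158 had r above 0.9 with Xpo5, 43 with Dicer1 and 0 with Prkra.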

How the data were processed

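The authors deposited raw counts: reads of 50 bases mapped to mm9 and counted in annotated 3′UTRs (RIP-seq) or per RefSeq transcript (mRNA-seq). The submitters' processing notes name mm10, STAR and edgeR, and the counting program and its use of strand are not given in the sources used here. GENCODE M1 on NCBIM37 gave names, positions and 3′UTR sequences (98.0% of RIP-seq rows with a symbol), and 98.7% of RefSeq rows had a symbol. Rows without one held 0.849% of the mRNA counts. RefSeq counts were summed per gene.

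RIP-seq rows with fewer than 10 counts in any library were left out. The edgeR 4.0.16 quasi-likelihood test used 1 fit of the 8 libraries, scaled to Gapdh and 50 neighbours on each side for comparisons with sham and by TMM for those between sponges. The neighbours were taken from the ranking by the raw ratio of miR292sp to sham. The mRNA experiments were fitted separately (6 mice each, filterByExpr, TMM), and their difference over all 12 mice. P-values were adjusted over all features by Benjamini-Hochberg, with a threshold of 0.05, and errors of log2 fold changes are standard errors. Columns of unmapped samples numbered 0. Alternatives were other scalings, filters, DESeq2 1.42.0, other sample sets, the header mark and single libraries left out. The fits were tested on simulated data. Likeness was Pearson's r of log2 scaled counts, with 0.1 CPM added for mRNA, and the 2 most alike genes per tested row were named. All 6 members were named in each comparison, and of the other pathway genes up to 3 called per direction. 3′UTRs of similar length had at least 0.8 times the length of the member's and at most its inverse ratio. R 4.3.3, Python 3.11.15, numpy 2.4.6, pandas 2.3.3 and matplotlib 3.10.9 were used. The members and gene lists were chosen with earlier results of these data known.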

Additional observations from a re-analysis of the deposited data

Results flagged for a closer look

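The effect of the sponges on mRNA differed between the miR-124 and the miR-125 experiment for 3 of the 5 measured genes, by edgeR's test of the difference itself over the 12 mice, which 14.5% of 13268 genes passed. It was 0.39 on the log2 scale for Dicer1 (adjusted p = 0.0162), 0.34 for Xpo5 (adjusted p = 0.0241) and -0.44 for Prkra (adjusted p = 0.0435). With the header mark as a covariate none passed (adjusted p = 0.0735 for Dicer1, 0.107 for Xpo5 and 0.0855 for Prkra in edgeR), and with each mouse left out in turn Prkra passed 2 of 12 times, Xpo5 9 times and Dicer1 12 times. Each is the log2 fold change with miR124sp minus that with miR125sp. For all 3 genes the GFP means of the 2 experiments lay further apart than the sponge means. The GFP means were 92.2 and 114 CPM for Dicer1, 63.0 and 80.7 CPM for Xpo5, and 26.7 and 21.7 CPM for Prkra. The sponge means were 110 and 104 CPM, 74.1 and 75.0 CPM, and 22.7 and 24.9 CPM. Only miR124sp and the GFP group of the miR-125 experiment hold libraries without the header mark, so the mark is partly aligned with these differences. The part of the GFP mice in the differences was not tested.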

How the results depend on the processing

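Member calls against sham kept their direction under all scalings for the Dicer1 3′UTR. With miR292sp, 2 member rows in place of 1 passed under TMM and median-ratio scaling (Prkra added, lower) and without a filter or with filterByExpr. With miR125sp, 2 passed without a filter and with filterByExpr. The row added by those filters was the Tarbp2 3′UTR, which filterByExpr keeps only through the libraries where it is high, so its calls support nothing. Against miR292sp, 1 member (Dicer1, lower) in place of 0 passed with miR124sp on the Gapdh-centred scale, in DESeq2 and without a filter, and 1 with miR125sp on the Gapdh-centred scale. In the mRNA, 3 in place of 2 passed with miR124sp in a fit of all 12 mice (Dgcr8 added), and 0 passed with miR124sp, and 0 in place of 3 for the difference, with the header mark as a covariate, and 0 with miR124sp in marked libraries alone, a setting chosen after the data were seen. With a library left out, 0 to 3 passed with miR124sp and 1 to 3 for the difference.

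All features called with miR124sp against sham numbered 823 (median-ratio) and 839 (TMM) in place of 1603, and with miR125sp 1339 and 1351 in place of 2492. With miR124sp against miR292sp they numbered 4122 (Gapdh-centred), 1123 (4 libraries), 1163 (DESeq2), 396 (filterByExpr) and 60 to 312 with a library left out, in place of 702. With miR125sp against miR292sp they numbered 3150, 514, 375, 35, 282 (no filter) and 6 to 20 with a library left out, in place of 116. With miR124sp against miR125sp they numbered 0 (filterByExpr), 13 (no filter) and 0 to 1 with a library left out, in place of 1. In the mRNA with miR124sp, 1453 (header mark) and 1001 to 4028 (a mouse left out) were called in place of 3018. With miR125sp they numbered 6 (12 mice), 142 (DESeq2), 62 (header mark), 96 (marked libraries), 209 (no filter) and 0 to 109 with a mouse left out, in place of 26. For the difference, 687 (header mark) and 1144 to 2935 (a mouse left out) were called in place of 1921. The cause of these changes was not tested.

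The relative enrichment of the Dicer1 3′UTR under TMM and in plain CPM was 1.67 and 1.56 for miR124sp, 1.81 and 1.73 for miR125sp, and 2.49 and 2.35 for miR292sp. With a library left out it ran from 1.96 to 2.33, from 2.50 to 2.97 and from 5.60 to 7.22 in that order.

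Log2 fold changes that did not pass the test changed sign as follows. The Dicer1 coding row against sham was at -0.68 (median-ratio) and -0.70 (TMM) with miR292sp and at -0.33 and -0.30 with miR124sp, and against miR292sp at -0.63 with miR124sp (Gapdh-centred). With a library left out it ran from -0.50 to 0.42 for miR124sp against sham and from -0.24 to 0.83 against miR292sp, below 0 without miR124sp replicate 3. Prkra ran from -1.42 to 0.058 for miR125sp against sham, above 0 without miR125sp replicate 1. For miR124sp against miR125sp, Prkra was at -0.13 (Gapdh-centred) and ran from -0.48 to 1.06, below 0 without miR125sp replicate 1 or miR124sp replicate 3, and the Dicer1 3′UTR ran from -0.27 to 0.012, above 0 without miR124sp replicate 4. In the mRNA, Tarbp2 was at 0.029 with the header mark and at 0.032 in marked libraries for miR124sp, and Dgcr8 ran from -0.047 to 0.052 for miR125sp, below 0 without GFP replicate 4.

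No paired analysis was run because neither the labels nor the methods pair libraries between groups. Low counts limit the 3′UTR rows of Xpo5 and Tarbp2 in the RIP-seq, with at most 11 and 59 counts a library. The Xpo5 row is 28 bases long, and 262 of the 334 bases of the Tarbp2 row are shared with other counted rows. The part of depth, row length and shared bases in these counts was not tested.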
